A study of Homo sapiens with 12 samples.

Results

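The early growth response genes EGR1, EGR2, EGR3 and EGR4, the nuclear receptor genes NR4A1, NR4A2 and NR4A3, and the immediate early response genes IER2, IER3 and IER5 were followed in breast epithelial cells that carried either of 2 cancer mutations and in cultures that mixed both lines. The 10 genes were chosen by name as members of these 3 families, with earlier results of these data known. Of them, 9 had a probe set (the array probes summarised into 1 signal per gene) named for the gene alone, and all 9 passed the filter on dim probe sets. EGR2 was not analysed here. The 9 genes were part of 17687 named genes on the array, of which 12758 passed the filter and were tested.

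Immediate-early genes are switched on within minutes of a growth factor or stress signal, without prior protein synthesis, and their messenger RNAs are short-lived. In epithelial cells a main route is the ERK kinase cascade, which activates ternary complex factors bound with serum response factor (SRF) at CArG boxes, while kinases of the RSK and MSK families act on CREB at cAMP response elements. The EGR and NR4A genes encode DNA-binding transcription factors, and the IER genes encode small proteins that feed back on survival and signalling.

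The cells derived from MCF-10A, an established human line of breast epithelium that does not form tumours. One group of 4 arrays came from single cultures of the line with HER2 L755S, which alters the kinase domain of HER2, a receptor tyrosine kinase. Another 4 came from single cultures of the line with PIK3CA E545K, which alters the catalytic subunit of PI3K, a lipid kinase, and 4 came from co-cultures of both lines. All groups grew in a medium with physiologic EGF and no other treatment, and were harvested between day 7 and day 14, when mutant HER2 cells made up about 75% of the co-cultures by droplet digital PCR. The labels name 1 line per mutation, so that line and mutation cannot be told apart, and no line without a mutation was analysed here. Which array was harvested on which day is not stated. The labels do not say whether arrays of a group came from separate cultures, so p-values measure the spread between these arrays, which may be technical. In a bulk sample, fewer cells with a transcript and less of it per cell cannot be told apart.

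Values are log2 probe-set signals as deposited, so that a difference of 1 is a doubling, and levels are compared between groups for each gene and never between genes. Array medians lay between 6.41 and 6.49. The 95th percentile of 612 negative control probe sets lay between 6.32 and 7.12. All 8 markers of breast epithelial cells with a probe set, such as KRT5 and CDH1, were above that percentile in all 3 groups. None of 4 endothelial and 3 fat cell markers was above it on all arrays of any group. Of 4 leukocyte markers with a probe set, CD14 was above it on all arrays of the PIK3CA E545K and co-culture groups, and the others were on all arrays of no group. Of 5 fibroblast markers, COL1A2 and DCN were above it in all groups, and DCN was higher in the HER2 L755S culture (10.70) than in the PIK3CA E545K culture (7.07) and the co-culture (8.03). The part of these markers in the results was not tested. ERBB2, the HER2 gene, and PIK3CA were not analysed here, so the genotype was not checked against the signal.

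The 1st HER2 L755S array stood apart for these genes. It was the lowest of its group for 8 of the 9 members, all but NR4A3, whereas it was the lowest for 27.5% of all tested genes. Among the 12758 genes, the most negative deviations of that array from its group mean belonged to FOSB (-1.89), IER2 (-1.82), EGR3 (-1.53) and JUNB (-1.27), in that order. FOS, at -1.06, was in the 8th place. Over all genes the array was not unusual, with a root mean square deviation of 0.228 against 0.204 to 0.249 on the other 3 arrays of the group. It was the lowest of its group for 17 of 34 other immediate-early genes. In the PIK3CA E545K group, replicate 3 was the highest for 7 of the 9 members (22.9% of all genes), and among the co-cultures replicate 4 was the highest for 6 (28.4% of all genes). Results that rest on the 1st HER2 L755S array are therefore given with and without it.

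**Figure D1:**
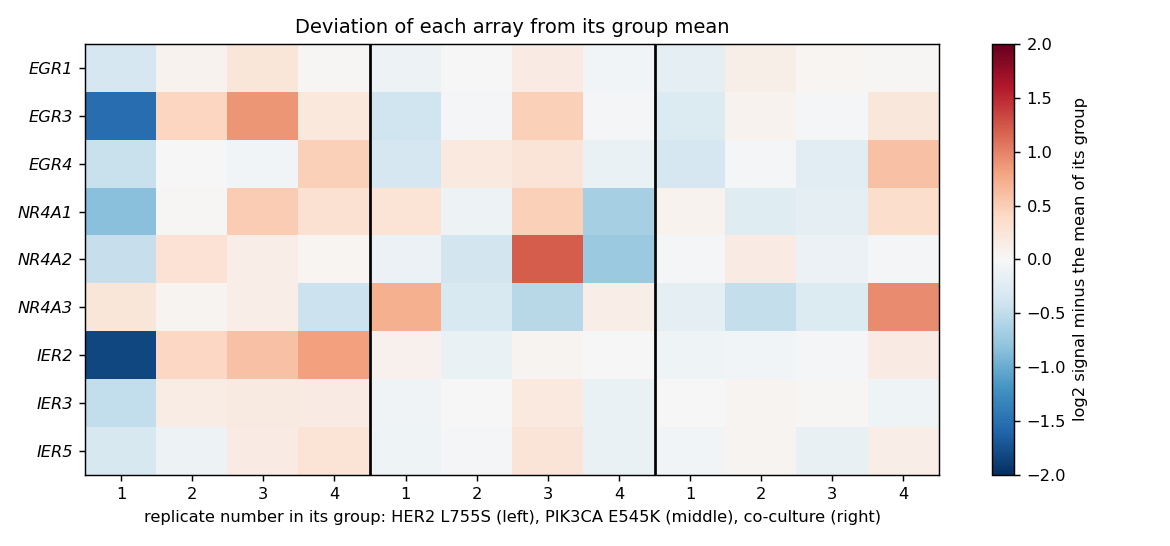
Deviation of each array from the mean of its group, on the log2 scale, for 9 genes (rows) and 12 arrays (columns, by group and replicate number; blue is below and red above the mean). The leftmost column, HER2 L755S replicate 1, is blue in 8 of 9 rows and darkest for IER2 (-1.82) and EGR3 (-1.53).

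In broad outline, EGR3, EGR4, NR4A1 and IER5 exceeded in the co-culture the level of either line grown alone, and EGR1 did not pass the test in any comparison. IER3 was far lower in the HER2 L755S line than in the PIK3CA E545K line, and the co-culture lay near the PIK3CA E545K level. NR4A2 and NR4A3 were near background, and NR4A2 passed the filter through the PIK3CA E545K and co-culture arrays alone, so its differences are not read as sizes. A gene was called in a comparison where limma's Benjamini-Hochberg adjusted p, over all 12758 genes, was under 0.05. Between the single cultures, 1 of 9 members was called higher in the HER2 L755S line (EGR3) and 3 lower (IER2, IER3 and NR4A2), against 30% and 29.5% of all genes. In the co-culture, 6 members were called higher than in the HER2 L755S line and 0 lower, against 24.9% and 26% of all genes. The 6 were EGR3, EGR4, NR4A1, NR4A2, IER3 and IER5. NR4A2 could pass the filter only through the groups where it was higher. Its part in the counts of 3 and of 6 is therefore no support for a direction. Against the PIK3CA E545K line 4 were called higher and 0 lower, against 11.1% and 14.6% of all genes. At an unadjusted limma p under 0.05, 0 members were lower relative to the HER2 L755S line and 2 relative to the PIK3CA E545K line (NR4A2 and IER3). The share of all genes at that threshold was not counted, so no direction is read from these unadjusted counts.

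The median difference of the 9 members was -0.25 for the HER2 L755S line minus the PIK3CA E545K line, where that of all genes was 0.05. It was 1.22 for the co-culture minus the HER2 L755S line (all genes -0.05) and 0.71 for the co-culture minus the PIK3CA E545K line (all genes -0.02). These medians fell on NR4A2 and NR4A3, both near background. Over the other 7 members, a set taken after the values were seen, they were 1.31 and 0.82, and that between the single cultures stayed at -0.25. EGR3, EGR4, NR4A1 and IER5 were called higher in the co-culture in both of these comparisons, which share the 4 co-culture arrays. This held for 264 genes, 2.07% of those tested. The same 4 members, and 267 genes or 2.09% in all, had every co-culture array above all 8 single-culture arrays. Ordered by the smaller of both differences among the 264 genes, EGR3 was in place 10, NR4A1 in place 19, EGR4 in place 24 and IER5 in place 52. When a log2 difference of 0.5 in place of 0 was tested against, EGR3 kept both calls, while EGR4, NR4A1 and IER5 lost that against the PIK3CA E545K line, at adjusted p of 0.0983, 0.0738 and 0.169, the largest over their alternatives.

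**Figure D2:**
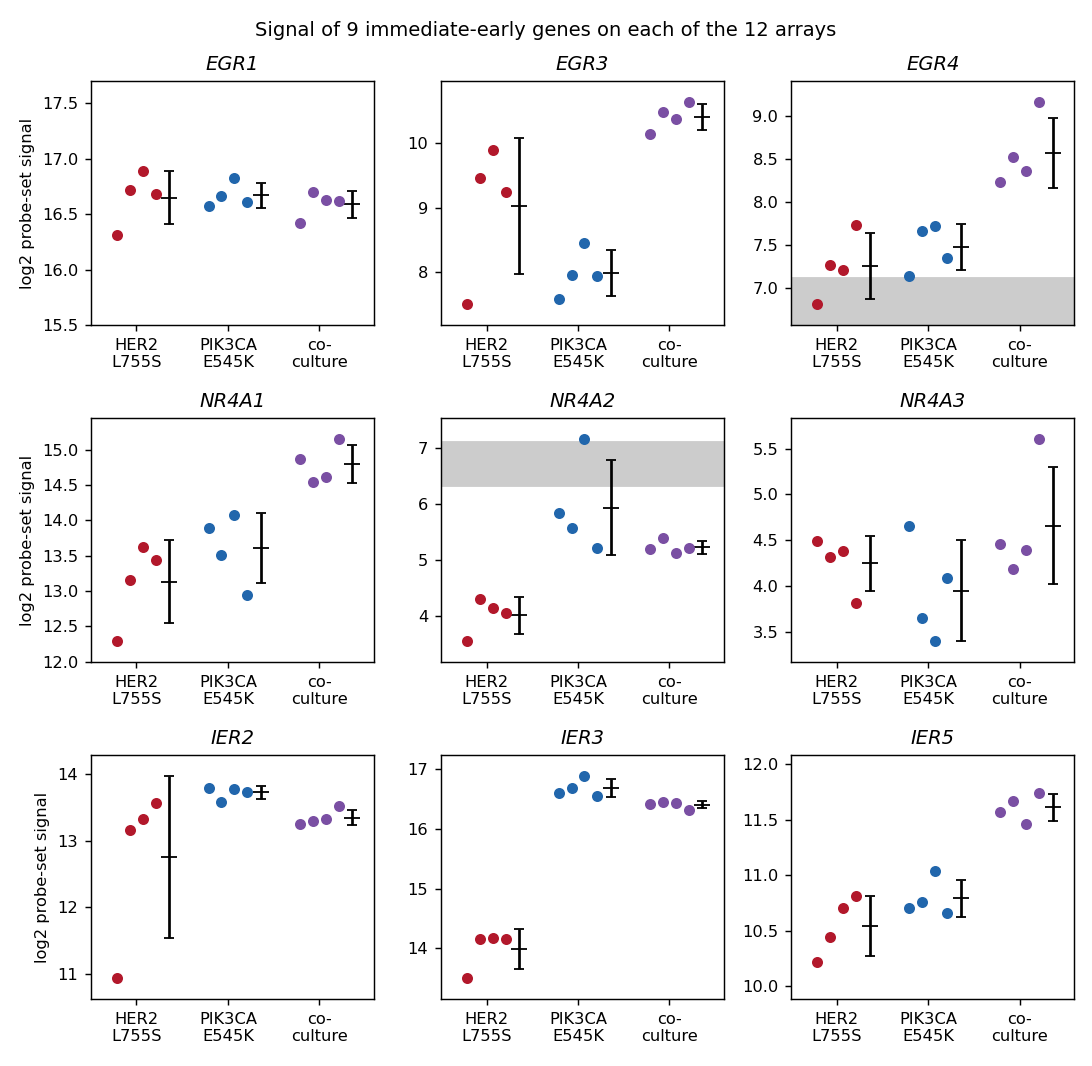
Log2 probe-set signal of 9 genes on each array (points, in order of replicate number) with the mean and SD of each group (black, n = 4). The vertical scales differ between panels, and the grey band spans the 95th percentile of negative control probe sets over the arrays, 6.32 to 7.12; all NR4A3 points lie below it. In EGR3, EGR4, NR4A1 and IER5 every co-culture point lies above all 8 single-culture points.

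Promoter sequence from RefSeq (GRCh38.p14) was at hand for 7 of the 10 genes with 10 start sites in all, as the 250 bases before each start. The stretches printed here are those of EGR1, whose signal was nearly level across the groups, and of EGR4 and IER5, which were highest in the co-culture. Capitals mark CArG boxes, the core TGACG of the cAMP response element (CGTCA on the other strand) and TATA boxes. They lie at chr5:138465229-138465478 (EGR1, plus strand), chr2:73293549-73293798 (EGR4, minus strand) and chr1:181088450-181088699 (IER5, plus strand), each printed 5′ to 3′ along the gene.
EGR1: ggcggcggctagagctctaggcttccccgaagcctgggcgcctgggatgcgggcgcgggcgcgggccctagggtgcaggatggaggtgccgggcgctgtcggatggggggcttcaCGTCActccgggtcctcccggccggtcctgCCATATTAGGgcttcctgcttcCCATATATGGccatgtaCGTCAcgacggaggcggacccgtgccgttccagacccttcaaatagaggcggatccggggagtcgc
EGR4: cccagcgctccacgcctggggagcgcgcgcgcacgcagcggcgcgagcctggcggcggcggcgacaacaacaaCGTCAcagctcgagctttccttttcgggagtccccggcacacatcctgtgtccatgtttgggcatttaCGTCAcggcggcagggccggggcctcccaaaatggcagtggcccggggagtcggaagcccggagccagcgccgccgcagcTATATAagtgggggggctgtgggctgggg
IER5: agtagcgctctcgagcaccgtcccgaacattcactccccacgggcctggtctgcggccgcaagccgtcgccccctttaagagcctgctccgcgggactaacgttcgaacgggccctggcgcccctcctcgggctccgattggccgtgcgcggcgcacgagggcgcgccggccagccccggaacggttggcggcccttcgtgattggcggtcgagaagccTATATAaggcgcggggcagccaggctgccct

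The EGR1 stretch held 2 CArG boxes, from -105 to -96 and from -83 to -74 counted from the start, and 2 cores of the cAMP response element at -135 and -66. Both strands were searched, and CArG boxes and cores could overlap, though these did not. A CArG box occurred before 1.16% of 35116 starts of all genes, and 2 or more before 0.0313%. The EGR1 stretch also held GCGNGGGCG, the site bound by EGR proteins themselves, at -198, as did 8.41% of starts. EGR4 held 2 cores, at -177 and -109, and a TATA box at -29. Its TATA box was searched as TATAAA or TATATA on the gene's own strand. The core preceded 21.2% of starts, 2 or more cores 4.76% and the TATA box 9.51%. IER5 held a TATA box at -31 and none of the other motifs. Outside the printed stretches, NR4A3 held 4 cores, IER2 held 1, and neither listed start of NR4A1 held any of these motifs. Other starts of NR4A1, and sequence farther from the listed ones, were not searched. EGR2, whose signal was not analysed here, held a CArG box from -71 to -62 and cores at -110 and -54 before 1 of its 3 starts, and none of the motifs before the others. EGR3, NR4A2 and IER3 had no entry. These matches are descriptions of letters and not of binding.

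EGR1 encodes the zinc finger factor that is the best known early response to growth factors, and its signal was alike in the 3 groups. Its log2 signal was 16.31, 16.72, 16.89 and 16.68 on the HER2 L755S arrays. It was 16.57, 16.66, 16.83 and 16.61 on the PIK3CA E545K arrays and 16.42, 16.70, 16.63 and 16.62 in the co-cultures. The groups overlapped throughout. The HER2 L755S line minus the PIK3CA E545K line gave -0.02 (95% interval -0.20 to 0.17), the co-culture minus the HER2 L755S line -0.06 (-0.25 to 0.13), and the co-culture minus the PIK3CA E545K line -0.07 (-0.26 to 0.12), with limma adjusted p of 0.899, 0.623 and 0.628. The sign of the first turned with array weights (0.0015), with median-centred arrays (0.07) and without HER2 L755S replicate 1 (0.10) or PIK3CA E545K replicate 3 (0.04). That of the second turned without HER2 L755S replicate 3 (0.02) or co-culture replicate 1 (0.00017). The group means spanned 0.07, and only 2.41% of tested genes had so small a span. The EGR1 probe set averaged 16.64 over all arrays, near the top of the signal range, where the brightest averaged 17.91. Of 65 genes within 0.5 of that signal, 73.8% were called between the single cultures in either direction. Of all genes, 30% were called higher and 29.5% lower there. A call does not show that so bright a signal follows the amount of RNA evenly, which was not tested.

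EGR3, a related factor whose gene is itself a target of EGR1 in other cell types, behaved otherwise. Its signal was 7.50, 9.46, 9.90 and 9.24 on the HER2 L755S arrays, 7.58, 7.95, 8.45 and 7.94 on the PIK3CA E545K arrays and 10.15, 10.49, 10.38 and 10.64 in the co-cultures. The co-culture stood above every other array. The 1st HER2 L755S array lay just below the lowest PIK3CA E545K array, and the other 3 were above all PIK3CA E545K arrays. Group means ± SD were 9.02 ± 1.06, 7.98 ± 0.36 and 10.41 ± 0.21 (n = 4 each). In limma the co-culture was higher than the PIK3CA E545K line by 2.43 ± 0.31 (SE, adjusted p 3.95e-06), 5.40-fold and the 11th largest increase among 12758 genes. It was higher than the HER2 L755S line by 1.39 ± 0.31 (adjusted p 0.000726), or 2.62-fold.

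Between the single cultures EGR3 was higher in the HER2 L755S line by 1.04 ± 0.31 (SE, limma adjusted p 0.00645, 2.06-fold), with overlap. Without HER2 L755S replicate 1 that difference was 1.55 ± 0.18 (adjusted p 1.66e-07, in a range from 1.66e-07 to 0.155 over all alternatives), and the co-culture's lead over the HER2 L755S line was 0.88 ± 0.18 (0.000343, in a range from 5.58e-05 to 0.0295). The call between the single cultures did not hold under robust estimation of the spread (0.0692) and against a tested margin of 0.5 (0.155). The order of the group means was co-culture, HER2 L755S, PIK3CA E545K, and each step passed the test.

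EGR4, the least studied factor of the family, was also highest in the co-culture. Its signal was 6.82, 7.27, 7.21 and 7.74 on the HER2 L755S arrays, 7.15, 7.67, 7.73 and 7.35 on the PIK3CA E545K arrays and 8.24, 8.53, 8.36 and 9.16 in the co-cultures. The single cultures overlapped and the co-culture lay above both, with replicate 4 the highest. On 1 of the HER2 L755S arrays the signal did not exceed the 95th percentile of negative controls of its array. Means of 7.26 in the HER2 L755S line and 7.48 in the PIK3CA E545K line lay close to that percentile (6.32 to 7.12). The folds that follow start from this low signal and are uncertain as sizes. The co-culture was higher than the HER2 L755S line by 1.31 ± 0.20 (SE, limma adjusted p 1e-05, 2.48-fold) and than the PIK3CA E545K line by 1.09 ± 0.20 (0.000288, 2.14-fold). Without HER2 L755S replicate 1 the first of these was 1.16 (6.24e-05). The single cultures differed by -0.22 ± 0.20 (0.379), which did not pass.

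The NR4A genes encode orphan nuclear receptors whose activity follows from their amount rather than from a known hormone. NR4A1, also called NUR77, was highest in the co-culture. Its signal was 12.29, 13.16, 13.62 and 13.44 on the HER2 L755S arrays, 13.89, 13.51, 14.08 and 12.94 on the PIK3CA E545K arrays and 14.87, 14.55, 14.61 and 15.15 in the co-cultures. Every co-culture array lay above all others, and the single cultures overlapped. In limma the co-culture was higher than the HER2 L755S line by 1.67 ± 0.22 (SE, adjusted p 1.31e-06, 3.18-fold) and than the PIK3CA E545K line by 1.19 ± 0.22 (0.000325, 2.28-fold). Without HER2 L755S replicate 1 the first of these was 1.39 (1.89e-06, in a range from 3.2e-07 to 0.00178).

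Between the single cultures NR4A1 differed by -0.48 ± 0.22 (SE, limma adjusted p 0.0704), which did not pass. The call was gained without HER2 L755S replicate 3 (-0.64, adjusted p 0.0206) or 4 (-0.58, 0.0377) and without PIK3CA E545K replicate 4 (-0.70, 0.00778). Without HER2 L755S replicate 1 it was -0.20 (0.38). The range over all alternatives was 0.00778 to 1.

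NR4A2, or NURR1, known for its part in dopamine neurons, had its highest mean in the PIK3CA E545K line. Its signal was 3.55, 4.30, 4.15 and 4.05 on the HER2 L755S arrays, 5.84, 5.58, 7.16 and 5.21 on the PIK3CA E545K arrays and 5.20, 5.40, 5.12 and 5.22 in the co-cultures. All HER2 L755S arrays lay below all others, and the co-cultures overlapped with the PIK3CA E545K arrays. PIK3CA E545K replicate 3 alone exceeded the 95th percentile of negative controls. On the HER2 L755S arrays NR4A2 was above the 30th percentile of named probe sets on 0 of 4, against 4 of 4 in each other group, so it could pass the filter only through the groups where it was higher. The fitted limma difference was -1.93 between the single cultures (adjusted p 2.03e-06) and 1.22 for the co-culture minus the HER2 L755S line (0.000693). Without HER2 L755S replicate 1 they were -1.78 (1.58e-05) and 1.07 (0.00388). With the HER2 L755S level not above background these are not sizes of a change, and no fold is given. The co-culture minus the PIK3CA E545K line was -0.71 ± 0.28 (0.0621), which did not pass. That call was gained without PIK3CA E545K replicate 2 (-0.83, 0.0483) or 4 (-0.96, 0.0131) and with array weights (-0.74, 0.0381). Without PIK3CA E545K replicate 3, the highest array, the difference was -0.31 (0.301), and the range over all alternatives was 0.0131 to 1. NR4A2 did not pass the filter at the 50th percentile.

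NR4A3, or NOR1, the third receptor of the family, stayed at the level of the background. Its signal was 4.49, 4.32, 4.38 and 3.82 on the HER2 L755S arrays, 4.66, 3.65, 3.40 and 4.09 on the PIK3CA E545K arrays and 4.46, 4.19, 4.39 and 5.60 in the co-cultures. None of the 12 arrays exceeded the 95th percentile of negative controls, and the groups overlapped. The highest value was that of co-culture replicate 4. The limma adjusted p was 0.346 between the single cultures, 0.217 against the HER2 L755S line and 0.0554 against the PIK3CA E545K line, with differences of 0.30, 0.41 and 0.71. The last was called without HER2 L755S replicate 4 (0.71, 0.0444), PIK3CA E545K replicate 1 (0.95, 0.0123) or co-culture replicate 2 (0.87, 0.0318) and with array weights (0.66, 0.0429). Without co-culture replicate 4 it was 0.40 (0.259), and the difference from the HER2 L755S line was 0.09 (0.774). The range for the last was 0.0123 to 1. At this signal no order of the groups can be read.

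IER3, or IEX-1, encodes a small protein that prolongs ERK activity and modulates cell death, and it had the largest span of the family. Its signal was 13.50, 14.15, 14.18 and 14.16 on the HER2 L755S arrays, 16.61, 16.69, 16.88 and 16.55 on the PIK3CA E545K arrays and 16.42, 16.46, 16.44 and 16.32 in the co-cultures. The 3 groups did not overlap, with HER2 L755S far below and the co-culture just under the PIK3CA E545K line. As for EGR1, whether so bright a signal follows the amount of RNA evenly was not tested. In limma the HER2 L755S line was lower than the PIK3CA E545K line, at a difference of -2.69 ± 0.11 (SE, adjusted p 9.15e-16), a 6.45-fold difference. The co-culture was higher than the HER2 L755S line by 2.42 ± 0.11 (1.18e-14, 5.34-fold). Without HER2 L755S replicate 1 these differences were -2.52 (1.01e-17) and 2.25 (1.5e-16). The co-culture minus the PIK3CA E545K line was -0.27 ± 0.11 (0.0719), which did not pass although the arrays did not overlap.

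That last difference was called without HER2 L755S replicate 1 (-0.27 ± 0.07, limma adjusted p 0.00413), an array that enters only the shared estimate of the spread. It was also called with array weights (0.0277), after quantile normalization (-0.36, 0.0115) and with only the groups compared in the fit (0.00384), in a range from 0.00384 to 1.

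IER2, an early response gene whose product moves to the nucleus, was lower in the HER2 L755S line, and 1 array carried much of the size. Its signal was 10.93, 13.17, 13.33 and 13.57 on the HER2 L755S arrays, 13.80, 13.59, 13.78 and 13.74 on the PIK3CA E545K arrays and 13.26, 13.30, 13.33 and 13.52 in the co-cultures. The PIK3CA E545K arrays lay above all others, by a narrow margin except for HER2 L755S replicate 1. In limma the HER2 L755S line was lower than the PIK3CA E545K line, at a difference of -0.98 ± 0.33 (SE, adjusted p 0.0137), and without replicate 1 at -0.37 ± 0.10 (0.00215, in a range from 0.00191 to 0.243). The call did not hold under robust estimation of the spread (0.12) and against a tested margin of 0.5 (0.243).

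The co-culture minus the HER2 L755S line gave 0.60 ± 0.33 for IER2 (SE, limma adjusted p 0.134), and without HER2 L755S replicate 1 it gave -0.0031 (0.983). Without HER2 L755S replicate 4 it was called at 0.88 (0.027), in a range from 0.027 to 1. The co-culture minus the PIK3CA E545K line was -0.37 ± 0.33 (0.465). It was called without HER2 L755S replicate 1 (-0.37 ± 0.09, 0.00298) and with only the groups compared in the fit (0.000948), in a range from 0.000948 to 1.

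IER5, a gene linked to heat shock factor 1 and to the response to radiation, joined EGR3, EGR4 and NR4A1. Its signal was 10.22, 10.44, 10.70 and 10.81 on the HER2 L755S arrays, 10.70, 10.76, 11.04 and 10.66 on the PIK3CA E545K arrays and 11.57, 11.67, 11.46 and 11.74 in the co-cultures. The single cultures overlapped, and the lowest co-culture array was above the highest of them. In limma the co-culture was higher than the HER2 L755S line by 1.07 ± 0.12 (SE, adjusted p 1.27e-07, 2.10-fold) and than the PIK3CA E545K line by 0.82 ± 0.12 (2.41e-05, 1.77-fold). Without HER2 L755S replicate 1 the first of these was 0.96 (5.93e-07). The single cultures differed by -0.25 ± 0.12 (0.0858), a difference called without HER2 L755S replicate 4 (-0.34, 0.021). It was -0.14 (0.326) without HER2 L755S replicate 1 and -0.16 (0.288) without PIK3CA E545K replicate 3, in a range from 0.021 to 1.

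**Figure D3:**
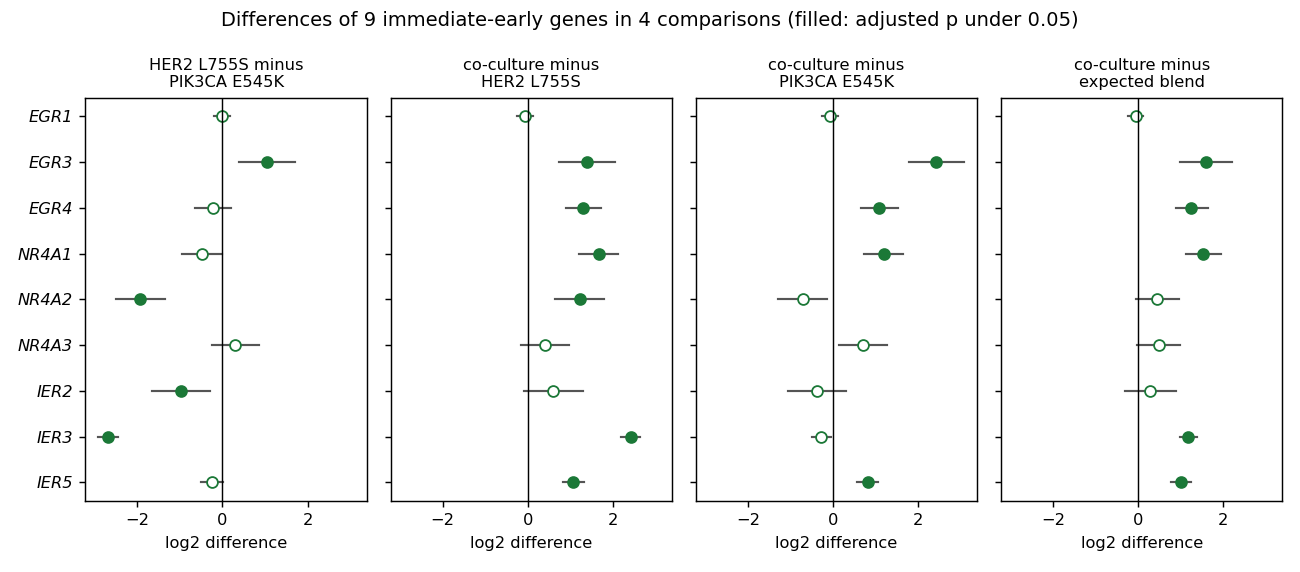
Log2 difference (points) with its 95% interval (lines) for 9 genes in 4 comparisons; filled points have a limma adjusted p under 0.05 over all 12758 genes. EGR3, EGR4, NR4A1 and IER5 are filled to the right of 0 in all 3 comparisons of the co-culture, and EGR1 sits near 0 in each.

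The co-culture held about 75% HER2 L755S cells, so its signal was also compared with the level that a blend of 75% of the HER2 L755S and 25% of the PIK3CA E545K mean signal, on the linear scale, would give. The blend assumes equal RNA from each cell of either line, which was not tested. In this comparison 5 members were called higher than the blend and 0 lower, against 18.5% and 22.3% of all genes, and the median difference of the 9 members was 1.00 (all genes -0.05). At an unadjusted p under 0.05 also, 0 members were lower than the blend, though the share of all genes at that threshold was not counted. EGR3 had a blend level of 8.83 and exceeded it by 1.59 ± 0.29 (SE, moderated test, adjusted p 0.000146). NR4A1 exceeded its blend of 13.26 by 1.53 ± 0.20 (1.58e-06), and EGR4 its blend of 7.32 by 1.25 ± 0.18 (7.38e-06). IER3 exceeded its blend of 15.24 by 1.18 ± 0.10 (1.75e-09), while its co-culture level lay between those of the lines. IER5 exceeded its blend of 10.61 by 1.00 ± 0.11 (1.47e-07).

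The members not called against the blend were EGR1 (-0.06, adjusted p 0.588), NR4A2 (0.45, 0.14), NR4A3 (0.48, 0.129) and IER2 (0.29, 0.455). Without HER2 L755S replicate 1, EGR3 exceeded the blend by 1.14 (1.57e-05, in a range from 1.05e-05 to 0.0122), and IER2 differed from it by -0.11 (0.343, in a range from 0.194 to 0.78). NR4A2 was called without PIK3CA E545K replicate 3 (0.67, 0.0022), with a blend of 90% HER2 L755S (0.86, 0.00542) and with a blend on the log2 scale (0.74, 0.0195), in a range from 0.0022 to 0.735.

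For the gene with the widest span of each family, the 3 genes with the most similar profile over the 12 arrays were found by the root mean square difference between centred profiles. EGR3 was most like EFNA1, an ephrin ligand (0.55), PID1 (0.58) and TRIML2 (0.60). EFNA1 averaged 11.70 in the HER2 L755S line, 10.30 in the PIK3CA E545K line and 12.99 in the co-culture. In the NR4A family the widest span was that of NR4A2, which rests on signal near background, so its nearest genes (DMD, TACC2 and SLIT2) are named without further reading. IER3 was most like VEGFA, the vascular growth factor (0.13), FADS2, a fatty acid desaturase (0.14), and ATP2B1, a calcium pump (0.16). VEGFA averaged 10.73, 13.35 and 13.11 in the same order.

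Factors and kinases that act on these genes were called in both directions, as were genes at large. With 17 tested, the counts are not read as a result about the list. Of 17 with a probe set, 9 were called higher and 5 lower in the HER2 L755S line than in the PIK3CA E545K line (median 0.36, all genes 0.05). Of all genes, 30% were called higher and 29.5% lower in that comparison. The shares were 24.9% and 26% for the co-culture relative to the HER2 L755S line. Relative to the PIK3CA E545K line they were 11.1% and 14.6%. SRF itself was higher in the HER2 L755S line by 1.44, and the kinase MSK1 (RPS6KA5), which acts on CREB, by 1.91. MAP2K1, which encodes the ERK kinase MEK1, was lower, at a difference of -1.96, and so was the ternary complex factor ELK3, at -1.28. In the co-culture 3 were called higher and 6 lower than in the HER2 L755S line (median -0.03, all genes -0.05), with RPS6KA5 at -1.11, MAP2K1 at 0.88, the SRF cofactor MRTFA at -0.80 and SRF at -0.78. Against the PIK3CA E545K line 7 were higher and 4 lower (median 0.11, all genes -0.02), among them MAP2K1 (-1.09), ELK3 (-0.80), RPS6KA5 (0.80) and SRF (0.66). SRF in the co-culture thus averaged 8.75, between 9.53 in the HER2 L755S line and 8.09 in the PIK3CA E545K line.

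Partners of the encoded proteins include the NAB corepressors of EGR factors and the RXR partners of NR4A receptors. Of 5 tested, 3 were called higher and 1 lower in the HER2 L755S line than in the PIK3CA E545K line (median 0.73). That stood against 30% and 29.5% of all genes, whose median was 0.05. In the co-culture 1 was called higher and 3 lower than in the HER2 L755S line (median -0.36, all genes -0.05), against 24.9% and 26%. Relative to the PIK3CA E545K line 3 were higher and 0 lower (median 0.37, all genes -0.02), against 11.1% and 14.6%. The count of 0 was the same at an unadjusted limma p under 0.05, where the share of all genes was not counted. With 5 genes, no direction is read from it. CITED2, a coregulator of CBP and p300, was higher in the HER2 L755S line by 3.85. RXRB was higher by 1.32 and NAB1 by 0.73, while NAB2, itself induced by EGR1 in other cells, was lower, at -0.52. All 4 were intermediate or at the PIK3CA E545K level in the co-culture, with means of 10.80 for CITED2, 10.18 for RXRB, 10.52 for NAB1 and 8.47 for NAB2.

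Factors that degrade short-lived messenger RNA had 7 tested members, with 3 called higher and 1 lower in the HER2 L755S line than in the PIK3CA E545K line (median 0.23). In the co-culture 2 were called higher and 3 lower than in the HER2 L755S line (median -0.21). Relative to the PIK3CA E545K line 2 were higher and 2 lower (median -0.17). Of all genes, 30% and 29.5% were called higher and lower between the single cultures (median 0.05). For the co-culture the shares were 24.9% and 26% (median -0.05), then 11.1% and 14.6% (median -0.02). With 7 genes, the counts are not read as a result about the list. ZFP36L1, which binds AU-rich elements of early response messenger RNAs, had a mean of 15.59 in the HER2 L755S line, 15.28 in the PIK3CA E545K line and 14.44 in the co-culture. It was lower in the co-culture relative to the HER2 L755S line, at -1.14 (limma adjusted p 7.43e-11) and relative to the PIK3CA E545K line, at -0.84 (1.11e-07), with no overlap of arrays in either comparison. TOB1 was lower relative to the HER2 L755S line, at -0.52, CNOT7, a deadenylase subunit, was higher by 0.41, and TOB2 was higher than in the PIK3CA E545K line by 0.65. ZFP36, the other well known AU-rich element binder, averaged 14.08 in the co-culture, against 14.55 in the HER2 L755S line (adjusted p 0.00216, with overlap) and 14.29 in the PIK3CA E545K line (0.214).

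Of 34 other immediate-early genes, 10 were called higher and 15 lower in the HER2 L755S line than in the PIK3CA E545K line (median -0.28). Of all genes, 30% and 29.5% were called there (median 0.05). In the co-culture 17 were called higher and 9 lower than in the HER2 L755S line (median 0.27), against 24.9% and 26% (median -0.05). Relative to the PIK3CA E545K line 12 were higher and 8 lower (median 0.02), against 11.1% and 14.6% (median -0.02). The count of 10 higher between the single cultures, and that of 9 lower than the HER2 L755S line, lay near these shares. Between the single cultures the extremes were PHLDA1 (-5.26), the ERK phosphatase gene DUSP4 (-4.26), FOSL2 (2.99) and the kinase gene SGK1 (2.87). Against the HER2 L755S line the co-culture was higher for DUSP5 (3.70), DUSP4 (3.56) and PHLDA1 (3.22) and lower for GADD45B (-2.84). Against the PIK3CA E545K line it was lower for PHLDA1 (-2.04) and FOS (-1.45) and higher for SGK1 (1.87) and PLK2 (1.58). Without HER2 L755S replicate 1 the counts higher and lower were 10 and 11 between the single cultures, 16 and 10 against the HER2 L755S line and 13 and 10 against the PIK3CA E545K line. The lower calls between the single cultures thus fell from 15 to 11, with FOSB, JUN, JUNB and ATF3 no longer called. The shares of all genes called higher and lower without that array are not given here, so no excess is read from these counts.

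Among these 34 genes, 6 were called higher in the co-culture than in both lines (ATF3, CCN2, DUSP5, JUND, RHOB and TRIB1) and 2 lower than in both (DUSP1 and FOS). They are named here after their values were seen. Over all genes, 264 were called higher and 261 lower than in both. Co-culture arrays overlapped with those of the PIK3CA E545K line for DUSP5 and ATF3, and with those of the HER2 L755S line for JUND and FOS. DUSP5, a nuclear ERK phosphatase, exceeded the HER2 L755S line by 3.70 and the PIK3CA E545K line by 0.92. TRIB1, a pseudokinase, exceeded them by 2.20 and 0.86, CCN2, a matrix signalling protein, by 1.10 and 1.24, and the GTPase gene RHOB by 0.65 and 1.28. FOS averaged 12.46 in the HER2 L755S line, 12.93 in the PIK3CA E545K line and 11.49 in the co-culture, while its relative FOSB averaged 11.30, 12.50 and 13.23. In the co-culture FOSB differed from the HER2 L755S line by 1.93 (limma adjusted p 0.000368) and from the PIK3CA E545K line by 0.73 (0.209, not called). With HER2 L755S replicate 1, where FOSB was lowest, left out, these were 1.30 (0.000306) and 0.73 (0.0307), so that FOSB joined the other 6 genes called higher than both lines. FOS was at -1.33 relative to the HER2 L755S line without that array, against -0.97 with it. FOSB between the single cultures was -1.20 (0.0147) with the array and -0.57 (0.0735) without it. The phosphatase gene DUSP1 was lower in the co-culture relative to either line, at -0.77 and -0.78.

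**Figure D4:**
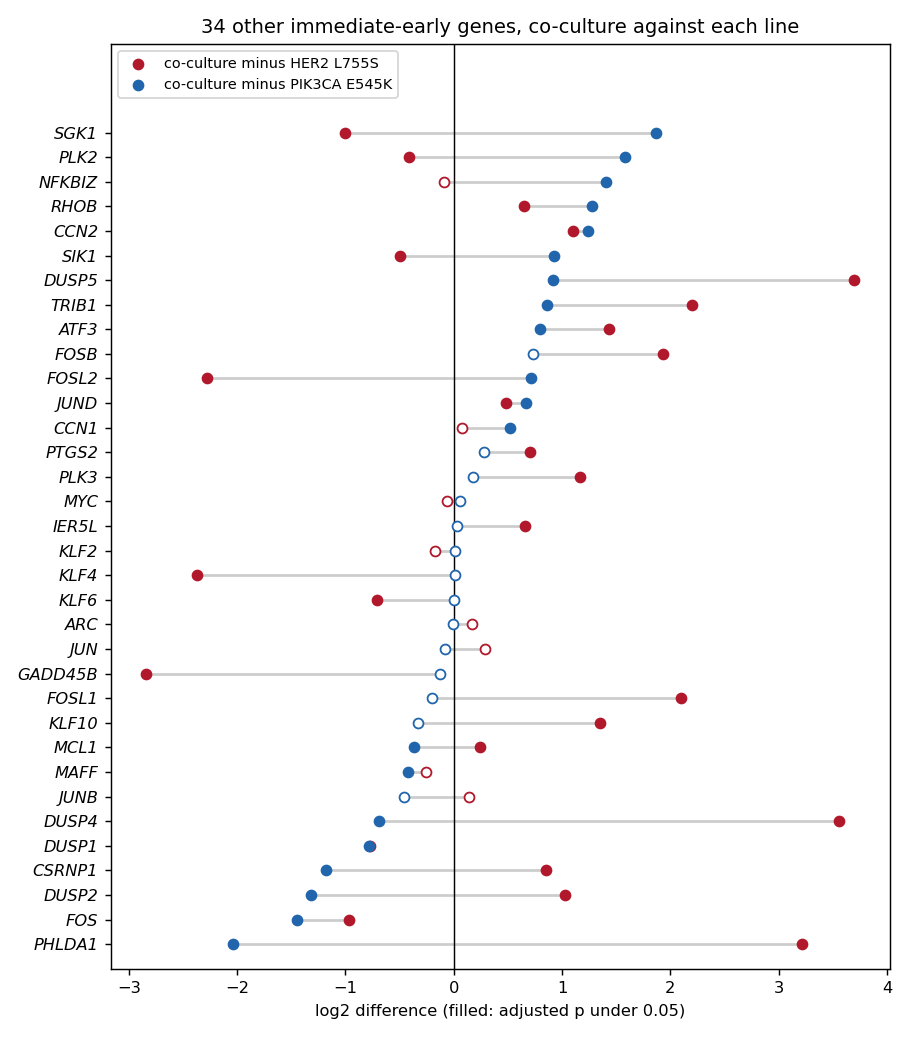
Log2 difference of the co-culture from the HER2 L755S line (red) and from the PIK3CA E545K line (blue) for 34 other immediate-early genes, ordered by the latter; filled points have a limma adjusted p under 0.05. Both filled points lie to the right of 0 for 6 genes and to the left for 2, DUSP1 and FOS.

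Of 10 tested genes reported elsewhere as EGR1 targets, 2 were called higher and 7 lower in the HER2 L755S line than in the PIK3CA E545K line (median -0.66), while EGR1 itself did not pass the test there. In the co-culture 7 were called higher and 1 lower than in the HER2 L755S line (median 0.56). Relative to the PIK3CA E545K line 3 were higher and 4 lower (median -0.01). Of all genes, 30% and 29.5% were called higher and lower between the single cultures (median 0.05). For the co-culture the shares were 24.9% and 26% (median -0.05), then 11.1% and 14.6% (median -0.02). The list holds THBS1 and FN1, whose differences were known beforehand as among the largest of the series. FN1 averaged 15.22 in the co-culture, above 5.85 in the HER2 L755S line and 13.16 in the PIK3CA E545K line. THBS1 averaged 13.52 in the co-culture, between 5.37 and 15.62. Among the others, F3, the tissue factor gene, was lower in the HER2 L755S line, at a difference of -3.20, and so was the growth factor gene PDGFA, at -1.98. In the co-culture F3 was at 11.40, between 8.92 in the HER2 L755S line and 12.13 in the PIK3CA E545K line, and PDGFA at 9.28, between 8.23 and 10.20.

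Heat and handling stress can induce several of the members, so 5 stress genes were examined. In the HER2 L755S line 4 were called higher and 1 lower than in the PIK3CA E545K line (median 0.75). In the co-culture 1 was called higher and 4 lower than in the HER2 L755S line (median -0.57), and 2 were higher and 0 lower than in the PIK3CA E545K line (median 0.10). That 0 also held at an unadjusted limma p under 0.05, where the share of all genes was not counted. Of all genes, 30% and 29.5% were called higher and lower between the single cultures (median 0.05). For the co-culture the shares were 24.9% and 26% (median -0.05), then 11.1% and 14.6% (median -0.02). With 5 genes, the counts are not read as a result about the list. HSPA1A, which encodes the inducible chaperone HSP70, averaged 13.75 in the HER2 L755S line, 11.95 in the PIK3CA E545K line and 12.81 in the co-culture. HSPH1 averaged 14.28, 13.52 and 13.49 in the same order. The part of stress in the members' levels was not tested.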

How the data were processed

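RNA of 12 arrays, 4 per group, was analysed. The files hold 1 log2 signal per probe set and array as deposited, and the authors used the Transcriptome Analysis Console, according to the submitters' processing notes. Its version, background correction, summarization and normalization are not given in the sources used here, nor is a genome build, and the log base was read from the range of the values. Groups came from the labels, with 0 arrays unassigned. The number of arrays limits the precision.

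Of 24351 probe sets, 17709 were named for 1 gene, and for 20 genes with several the brightest was used. Genes were kept whose signal exceeded the 30th percentile of the array's named probe sets (4.30 to 4.42) on at least 4 of 12 arrays. In limma 3.58.1 (R 4.3.3) 1 mean per group was fitted over all 12 arrays, and the spread was moderated by empirical Bayes with a trend on signal. The tests were two-sided, with Benjamini-Hochberg adjustment over 12758 genes and a threshold of 0.05. The blend was formed from group means on the linear scale, and the standard error of the difference from it came from the moderated spread by the delta method. The method was tested on simulated data.

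The members and the gene lists were chosen with earlier results of these data known. The text names every member, up to 4 genes per list and comparison with the largest differences among those called without overlap of arrays, and the 3 genes most like the widest-ranging member of each family; ZFP36, FOSB and the genes outside both lines were named after their values were seen. Alternatives changed the spread model, array weights, the filter, the normalization, the probe-set rule, the arrays in the fit, the replicate block, the tested margin and the blend, and left out each array in turn. Promoter sequences and starts are those of RefSeq for GRCh38.p14, matched by symbol.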

Additional observations from a re-analysis of the deposited data

Results flagged for a closer look

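Each of the 9 genes was checked in each of the 3 groups for an array far from the other 3, a comparison of the gap to the nearest array with the whole range of the group. Of 27 such groups, 2 exceeded the 95% critical value of Dixon's test for 4 samples, which chance exceeds in about 1 group in 20. Both concern the 1st HER2 L755S array. IER2 was low there at 10.93, where the nearest array was at 13.17 and the farthest at 13.57, so that the gap took a share of 0.848 of the range. IER3 was low there at 13.50, where the others lay between 14.15 and 14.18, a share of 0.955.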

How the results depend on the processing

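The 3 pairwise comparisons and that with the blend were repeated in 12 fits that left out 1 array each, and under 11 other settings for each pairwise comparison and 12 for the blend. Of 829 values of single members, 792 kept their direction and their side of the threshold, 7 lost the call, 22 gained it and 8 changed sign. EGR3, EGR4, NR4A1 and IER5 were called higher in the co-culture than in both lines under every setting except the tested margin of 0.5, which left 1, EGR3; the settings for this count, and the counts of other immediate-early genes without 1 array, were chosen after the data were seen. With that margin, members called fell from 4 to 2 between the single cultures and from 4 to 1 against the PIK3CA E545K line. Genes called fell from 7587 to 3524 between the single cultures, from 6503 to 2269 against the HER2 L755S line, from 3273 to 439 against the PIK3CA E545K line and from 264 to 27 above both, since the margin asks for larger differences. Between the single cultures, a robust estimate of the spread left 2 members called. With array weights, 7 were called against the PIK3CA E545K line, 5 higher and 2 lower. The numbers of all genes called with a robust spread or array weights are not given here. The cause of these changes was not tested.

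Leaving out 1 array gave 7180 to 7590 genes and 4 to 6 members called between the single cultures, 6048 to 6439 and 6 to 7 against the HER2 L755S line, 2773 to 3502 and 4 to 6 against the PIK3CA E545K line, 4613 to 5193 and 5 to 6 against the blend, and 220 to 280 and 4 to 4 above both. EGR1 ranged from -0.09 to 0.10 between the single cultures and from -0.17 to 0.02 against the HER2 L755S line, and was 0.0015 with array weights and 0.07 with median-centred arrays between the single cultures. IER2 ranged from -0.0031 to 0.88 against the HER2 L755S line and from -0.11 to 0.45 against the blend. Median-centring moved the median of all genes from 0.05 to 0.14 between the single cultures and from -0.05 to -0.13 against the HER2 L755S line.

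With the replicate number as a block, 4, 6, 5 and 5 members were called in the 4 comparisons. Of the 12758 genes, 7604, 6506, 3335 and 5258 were called there. IER3 was newly called against the PIK3CA E545K line (-0.27, limma adjusted p 0.0394). Same-numbered arrays did not deviate together (12 pairs, correlation over genes from -0.03 to 0.06, 0 over 0.1), so the numbers were not taken as pairing. NR4A2 and NR4A3 lie near the background, so their differences are limited by signal.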
